A study of Mus musculus with 9 samples.

Results

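The 10 genes described here are 9 markers of the contractile and basal programme of myoepithelial cells (Csrp2, Acta2, Actg2, Myh11, Mylk, Cnn1, Tagln, Lmod1 and Trp63) together with Csrp1, a gene for a LIM domain protein. They were taken as every array probe that the platform annotation assigns to 1 of these symbols, which gave 21 of 45281 probes for 10 of 19057 named genes. Csrp1 was chosen because earlier results of these data showed it far higher in lesions than in normal glands, and the others as genes that might be lower there. Differences of these genes from normal glands are therefore given as a description, with no test. Of the 21 probes, 14 lay above the background level (a log2 intensity of 6.34) on at least 3 arrays, and they covered 9 of the 10 genes. The single Cnn1 probe did not pass.

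Myoepithelial cells wrap around the acini and intercalated ducts of salivary glands, carry a smooth-muscle-like contractile apparatus and squeeze saliva out when they shorten. In that apparatus the smooth muscle actins slide on myosin whose heads are switched on when myosin light chain kinase phosphorylates the light chains, while calponin, transgelin and leiomodin bind the actin filaments. These cells are epithelial and basal: they contain keratins 5 and 14 and the transcription factor p63. Vascular smooth muscle and pericytes use the same contractile genes, and myofibroblasts express Acta2 as well.

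Gene expression was profiled on 9 Illumina arrays of submandibular salivary gland tissue from Smgb-Tag mice, a transgenic line in which the viral oncoprotein SV40 large T antigen is made in this gland. Every group carried the genotype Smgb-Tag, the normal one included: 3 arrays came from glands graded normal, 3 from dysplasia and 3 from adenocarcinoma. No gland without the transgene was analysed, and the labels give neither age nor sex, nor say whether replicates came from separate mice. The p-values therefore reflect only how far these samples differ from each other, and that spread may be technical. Both lesion groups were set against the same 3 normal arrays. Secretory genes of the gland were detected throughout, and the acinar water channel gene Aqp5 had log2 intensities of 11.09 to 14.63 on the 9 arrays. With 3 arrays a group, precision is set by that number.

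The array labelled normal 3 did not resemble the other normal arrays. Over the 12723 genes tested, normal 1 and normal 2 correlated at r = 0.992, whereas either of them correlated with the remaining 7 arrays at only 0.813 to 0.912. Normal 3 correlated with the 6 lesion arrays at 0.895 to 0.972 (genes are not independent replicates). The log2 summed intensity of 9 secretory genes was 17.36 on normal 3 and 18.34 on normal 1 and 2. It was 14.58 to 16.11 in dysplasia and 15.48 to 17.96 in adenocarcinoma. The label is kept as given, but whether it is right is in doubt, so a difference from normal on all 9 arrays may mix a lesion-like array into the normal side. Differences from normal glands are given with and without normal 3 below, except where every array of a group was below background. Where only some arrays of a group were, the size is uncertain. Leaving it out was decided after its values were seen, which makes p-values and counts from the remaining 8 arrays too favourable, and the normal side then rests on normal 1 and normal 2 alone.

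**Figure D1:**
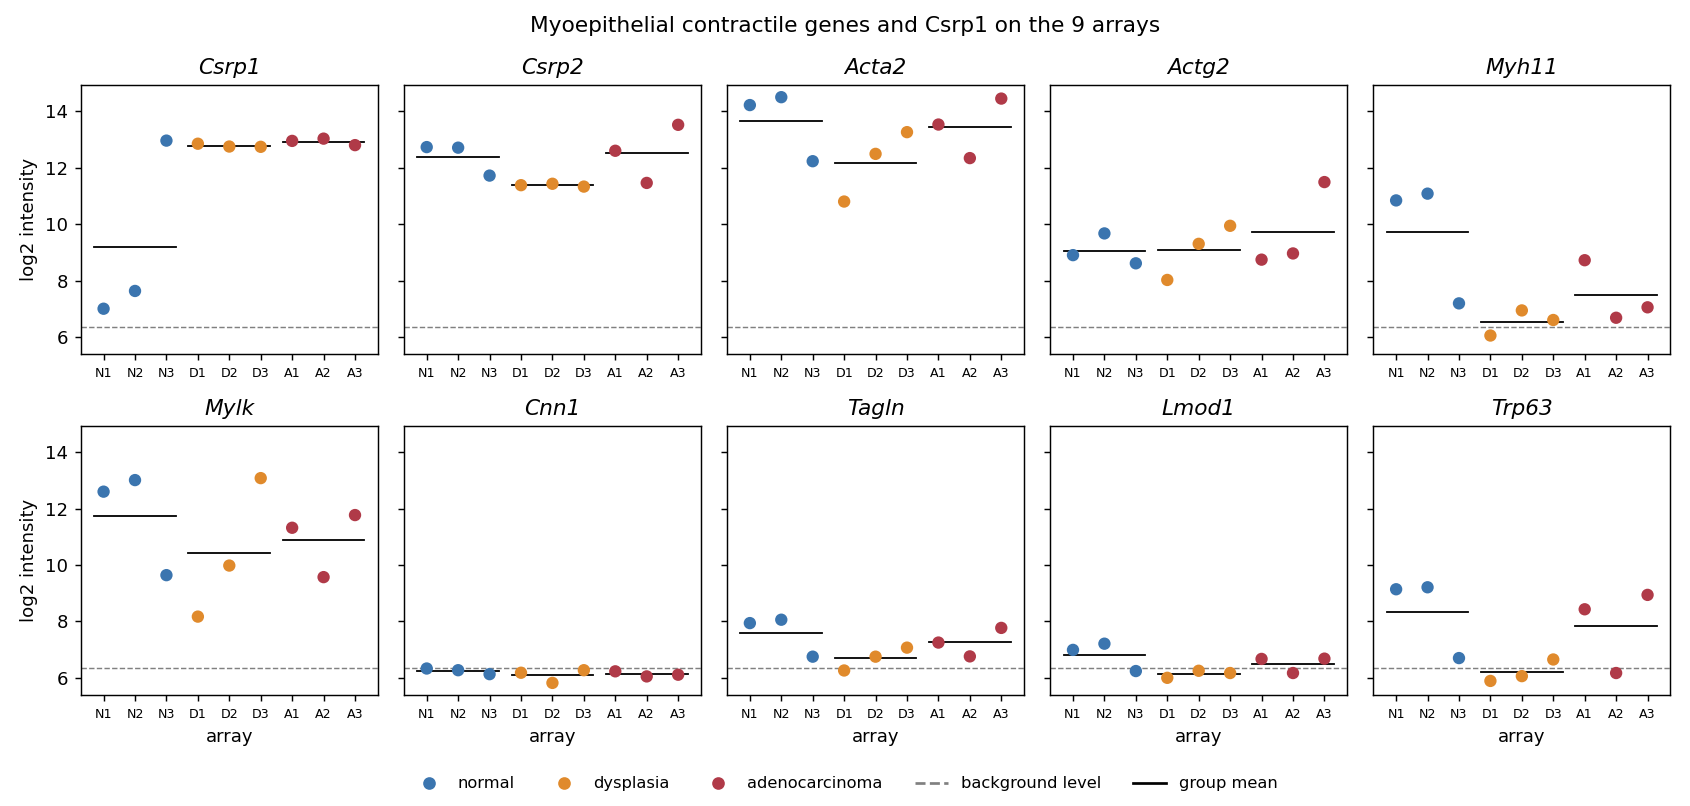
Log2 intensity (y axis) of each of the 10 genes on the 9 arrays (x axis: N normal, D dysplasia, A adenocarcinoma, with the replicate number), 1 probe per gene. Points are arrays, black lines are group means and the dashed line is the background level of 6.34. Csrp1 is low on N1 and N2 alone, whereas Myh11, Tagln, Lmod1 and Trp63 are highest on those arrays.

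Contractile genes are classic targets of serum response factor, which binds the CArG box, and of TEAD factors, which bind the MCAT element CATTCC. RefSeq promoter windows of the GRCm38.p6 assembly were on hand for 5 of the 10 genes, 6 windows in all, and the 250 bases before the annotated start were searched for both. The windows of Acta2 and Lmod1, 2 genes whose signal was lower on normal 3 and dysplasia than on normal 1 and 2, and both windows of Csrp1, which was higher there, are shown for comparison. Capitals mark CArG-like matches, which allow 1 base off the consensus (the motif reads as itself on the other strand to the same degree). Acta2 is at chr19:34255374-34255623 on the minus strand, Lmod1 at chr1:135324563-135324812 and Csrp1 at chr1:135719813-135720062 and chr1:135728917-135729166, all 3 on the plus strand.
Acta2: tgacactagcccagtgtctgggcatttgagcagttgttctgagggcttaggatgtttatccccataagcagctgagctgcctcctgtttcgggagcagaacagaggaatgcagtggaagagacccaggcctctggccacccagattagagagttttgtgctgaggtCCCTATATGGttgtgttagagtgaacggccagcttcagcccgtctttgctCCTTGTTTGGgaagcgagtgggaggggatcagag
Lmod1: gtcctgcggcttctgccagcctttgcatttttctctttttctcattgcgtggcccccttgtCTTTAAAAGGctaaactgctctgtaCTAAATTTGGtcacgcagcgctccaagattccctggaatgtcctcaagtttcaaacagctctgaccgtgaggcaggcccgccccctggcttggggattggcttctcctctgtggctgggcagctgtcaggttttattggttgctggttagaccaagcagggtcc
Csrp1, upstream start: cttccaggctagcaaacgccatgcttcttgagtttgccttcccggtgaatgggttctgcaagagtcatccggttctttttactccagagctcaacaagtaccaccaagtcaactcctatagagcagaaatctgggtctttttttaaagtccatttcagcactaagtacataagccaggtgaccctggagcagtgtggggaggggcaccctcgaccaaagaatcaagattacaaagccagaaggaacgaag
Csrp1, downstream start: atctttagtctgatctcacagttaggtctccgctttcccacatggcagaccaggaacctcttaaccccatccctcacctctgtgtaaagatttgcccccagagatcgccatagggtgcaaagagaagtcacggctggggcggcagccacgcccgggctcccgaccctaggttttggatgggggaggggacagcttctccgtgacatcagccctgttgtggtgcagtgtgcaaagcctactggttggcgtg

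Acta2 held 2 CArG-like matches, which begin 84 and 34 bases before its start, and Lmod1 held 2, which begin 189 and 164 bases before. The windows of Csrp1, Cnn1 and Mylk held 0. Among all 32851 windows of this length 18.6% held at least 1 such match and 2.96% held at least 2, and an exact CArG box was found in 1.47% but in 0 of the 6 windows here. The MCAT element, searched on both strands, occurred in the windows of Acta2, Lmod1 and Mylk, against 12.6% of all windows. A match is a run of letters and not a measured binding site.

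Csrp1 encodes cysteine and glycine-rich protein 1, a LIM domain protein that binds actinin and zyxin on actin filaments and is abundant in smooth muscle. Its probe gave log2 intensities of 7.0, 7.63 and 12.96 on normal 1, 2 and 3. On dysplasia 1, 2 and 3 it gave 12.85, 12.75 and 12.74, and on adenocarcinoma 1, 2 and 3 it gave 12.95, 13.03 and 12.80. Normal 1 and 2 were thus far below every other array, normal 3 stood among the lesions, and the groups overlapped when normal 3 was counted. The group means were 9.20 ± 3.28 (SD, n = 3) in normal glands, 12.78 ± 0.06 in dysplasia and 12.93 ± 0.12 in adenocarcinoma, differences from normal of 3.58 and 3.73 on the log2 scale. Without normal 3 the differences were 5.47 and 5.61.

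Among the lesion arrays Csrp1 was more even than most genes. Its 6 lesion values spanned 0.30 on the log2 scale, against a median range of 0.84 over all tested genes, and 6.40% of the genes had a smaller range. The step from the higher of normal 1 and 2 to the lowest lesion array was 5.11 on the log2 scale, the widest upward step of the 12723 genes in that comparison without normal 3. These values are part of what singled Csrp1 out and carry no test. A single probe measured the gene, so no second probe was at hand to compare.

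**Figure D2:**
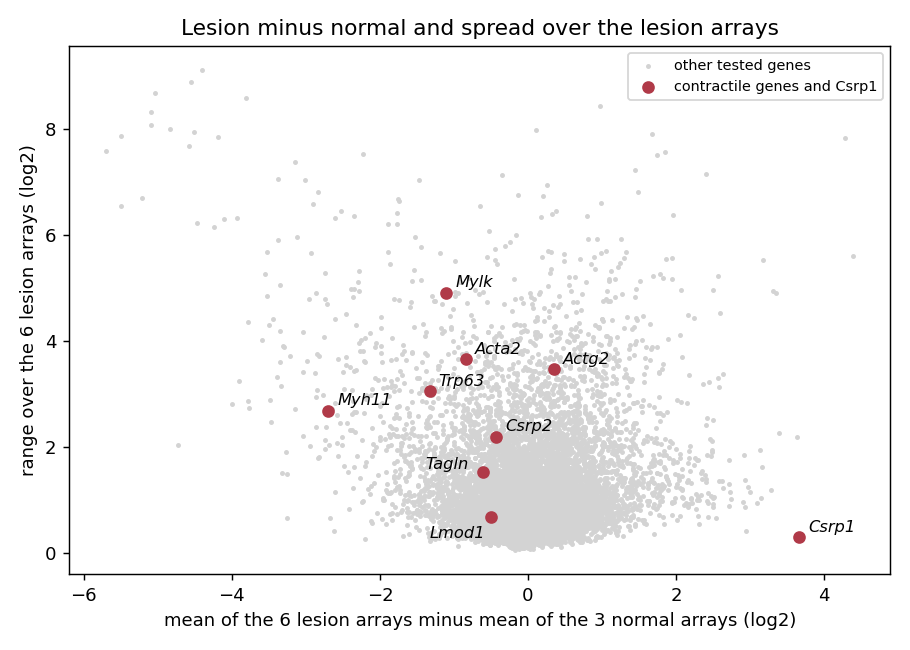
Each point is a tested gene: the mean of the 6 lesion arrays minus the mean of the 3 normal arrays (x axis, log2) against the range over the 6 lesion arrays (y axis, log2). Csrp1 is at lower right, with a difference of 3.66 and a range of 0.30, while Mylk varies over 4.91 among the lesions. Csrp1 is not the only such gene: Anln, with a range of 0.41, was also far lower on normal 1 and 2.

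Csrp2 encodes the closely related LIM protein CRP2, best known from vascular smooth muscle. Log2 intensities were 12.73, 12.71 and 11.72 on normal 1 to 3, 11.38, 11.43 and 11.33 on dysplasia 1 to 3, and 12.60, 11.46 and 13.52 on adenocarcinoma 1 to 3. All 3 dysplasia arrays were below every normal array, including normal 3, and below every adenocarcinoma array. The mean in dysplasia was lower than in normal glands by a log2 difference of -1.0 (-1.34 without normal 3), and adenocarcinoma differed from normal by 0.14 (-0.19 without normal 3). The mean differences of the 2 CRP genes from normal thus had opposite signs in dysplasia. For Csrp1 the sign rests on normal 1 and 2 alone, and both genes were chosen with such differences in mind.

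Acta2, the smooth muscle alpha-actin gene, was read by 6 probes. The brightest gave log2 intensities of 14.22, 14.50 and 12.23 on the normal arrays, 10.80, 12.49 and 13.26 on the dysplasia arrays, and 13.53, 12.34 and 14.45 on the adenocarcinoma arrays. Dysplasia 1 was lowest, and adenocarcinoma 3 reached the level of normal 1 and 2. The mean difference from normal was -1.47 in dysplasia and -0.21 in adenocarcinoma, or -2.17 and -0.92 without normal 3, with overlap in both on all 9 arrays. Across the 4 probes above background the dysplasia difference ran from -1.35 to -2.19, and all 4 placed dysplasia 1 lowest. The other 2 probes lay at 5.84 to 6.21, below background on every array.

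Actg2 encodes the smooth muscle gamma-actin, typical of visceral muscle. It followed another order: 8.90, 9.67 and 8.61 on normal, 8.02, 9.30 and 9.94 on dysplasia, and 8.74, 8.96 and 11.49 on adenocarcinoma (log2 intensity). Adenocarcinoma 3 was the highest array and dysplasia 3 the next, and the 3 groups overlapped. The differences from normal were 0.03 in dysplasia and 0.66 in adenocarcinoma, both less than the SD within the lesion group (0.97 and 1.53), and -0.20 and 0.44 without normal 3.

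Myh11, the smooth muscle myosin heavy chain, showed the largest loss of signal of the 10 genes. The probe above background gave log2 intensities of 10.84, 11.08 and 7.19 on normal 1 to 3. In dysplasia it gave 6.05, 6.94 and 6.60, so dysplasia 1 was below background, and in adenocarcinoma 8.72, 6.68 and 7.05. Dysplasia did not overlap normal glands even with normal 3 counted, whereas adenocarcinoma 1 lay above normal 3. Dysplasia was lower than normal by -3.17 and adenocarcinoma by -2.22 as log2 differences, or -4.43 and -3.47 without normal 3. Values this close to background may understate the difference. A second Myh11 probe never exceeded 6.07.

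Mylk encodes myosin light chain kinase. Its brightest probe read 12.60, 13.01 and 9.64 on normal, 8.17, 9.98 and 13.08 on dysplasia, and 11.32, 9.57 and 11.77 on adenocarcinoma (log2 intensity). Dysplasia 3 was the highest of the 9 arrays and dysplasia 1 the lowest, a span of 4.91 within a single group. The mean differences from normal were -1.34 in dysplasia and -0.86 in adenocarcinoma, or -2.40 and -1.92 without normal 3. The 2 other probes above background also put dysplasia 3 near the normal level (10.64 and 10.55) and dysplasia 1 lowest (6.77 and 6.58). On dysplasia 3, then, Mylk was at its normal 1 and 2 level while Myh11 was at 6.60. The Mylk locus also encodes a long non-muscle form of the kinase and the short protein telokin, and these probes were not assigned to a form here.

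**Figure D3:**
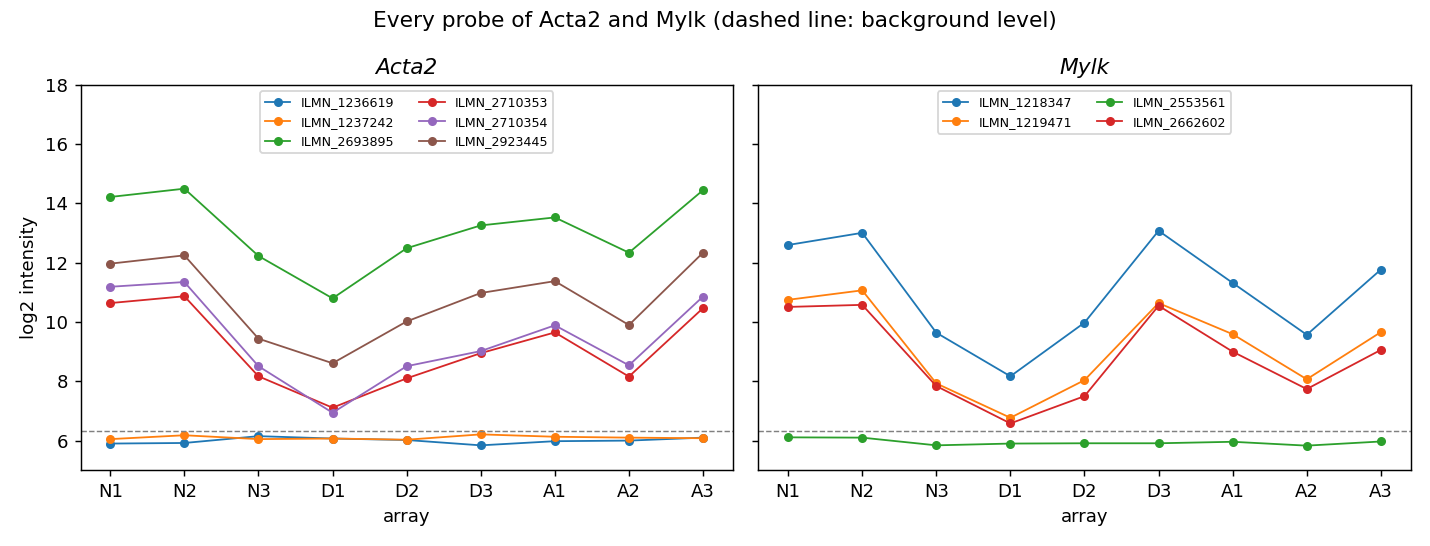
Log2 intensity (y axis) of every Acta2 and Mylk probe on the 9 arrays (x axis: N normal, D dysplasia, A adenocarcinoma). Each line is a probe, named in the legend, and the dashed line is the background level. The 4 Acta2 and 3 Mylk probes above background run in parallel, with Mylk on D3 near its N1 and N2 level, and the remaining probes stay below the line.

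The genes of the actin-binding regulators were dim. Tagln, for transgelin, read 7.94, 8.06 and 6.75 on normal, 6.26, 6.75 and 7.07 on dysplasia and 7.25, 6.76 and 7.77 on adenocarcinoma (log2 intensity), with its second probe below background throughout. Normal 1 and 2 were the highest arrays, and the differences from normal were -0.89 in dysplasia and -0.33 in adenocarcinoma (-1.31 and -0.74 without normal 3). Lmod1, for leiomodin 1, which nucleates actin filaments in smooth muscle, read 6.99, 7.21 and 6.24 on normal and 6.67, 6.17 and 6.68 on adenocarcinoma. All 3 dysplasia arrays were below background (6.0, 6.25 and 6.17), as were normal 3 and adenocarcinoma 2. No difference from normal is therefore given for Lmod1. Cnn1, for calponin 1, stayed at 5.82 to 6.33 on the 9 arrays, which gives no level in any group.

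Trp63 encodes p63, which marks basal and myoepithelial cells. Its brighter probe read 9.14, 9.21 and 6.70 on normal 1 to 3, 5.89, 6.06 and 6.65 on dysplasia 1 to 3, and 8.43, 6.17 and 8.94 on adenocarcinoma 1 to 3 (log2 intensity). Dysplasia did not overlap normal glands, but by a narrow margin, with dysplasia 3 at 6.65 and normal 3 at 6.70. Of the 3 dysplasia arrays, 1 was above background. The adenocarcinoma arrays were uneven: 1 and 3 were close to normal 1 and 2, and 2 was below background. Differences from normal were -2.15 in dysplasia and -0.50 in adenocarcinoma, or -2.98 and -1.33 without normal 3, sizes that are uncertain because 2 of the 3 dysplasia values were below background.

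On all 9 arrays 3 of the 9 measurable genes (Csrp2, Myh11 and Trp63) had their highest dysplasia array below their lowest normal array and 0 the reverse, where 10.5% of all tested genes were lower and 12.3% higher in that way. For Trp63 the margin was narrow, with dysplasia 3 at 6.65 and normal 3 at 6.70. Adenocarcinoma overlapped normal glands for all 9, against 9.76% of tested genes that were lower without overlap and 10.4% that were higher. Without normal 3, 6 were lower without overlap in dysplasia and Csrp1 was higher (27.4% and 32.1% of tested genes), and in adenocarcinoma 5 were lower and Csrp1 was higher (27.1% and 28.9%). Dysplasia 1 was the lowest array for 7 of the 9 genes, as for 14.7% of tested genes. For Lmod1 and Trp63, which are among the 7, other arrays were below background too, so their lowest array is uncertain. For Csrp2, Acta2, Tagln, Lmod1 and Trp63 the 4 highest arrays were normal 1, normal 2, adenocarcinoma 1 and adenocarcinoma 3, an order that 6.31% of tested genes showed. The fibroblast genes Dcn, Lum, Dpt and Pdgfra had the same 4 highest arrays, though others of that list, such as Col1a1, did not. So did the skeletal muscle genes Acta1, Tnni2, Tnnc2, Mylpf and Myl1, though Mb did not. The order was thus not particular to myoepithelial genes, and the part of other cells in it was not tested. Normal 1 and 2 were above the other 7 arrays for Myh11, Tagln, Lmod1 and Trp63 (18.3% of tested genes) and below them for Csrp1 (21.2%). Since the genes were chosen on their difference from normal glands, these counts are a description. In bulk tissue, fewer myoepithelial cells and less RNA per cell cannot be told apart.

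The comparison of adenocarcinoma with dysplasia was not used in choosing the genes and asks whether contractile gene levels separate the 2 kinds of lesion. All 9 measurable genes had a higher mean in adenocarcinoma, where 44.0% of tested genes did. So did all 12 tested skeletal muscle genes, all 8 fibroblast genes and 10 of 11 endothelial genes, and their part in the contractile gene values was not tested. For 1 of them, Csrp2, the groups did not overlap, against 4.03% of tested genes higher without overlap and 6.55% lower. No gene on the arrays passed an adjusted p of 0.05 in limma (0% of 12723 genes called, 536 genes or 4.21% at an unadjusted p under 0.05), and none of the 9 did. The log2 fold change was 1.65 ± 0.86 for Trp63 (SE), with a 95% interval of -0.33 to 3.63 and an adjusted p = 0.89, on a dysplasia side mostly below background. Csrp2 had 1.14 ± 0.50 (adjusted p = 0.89), with the 3 adenocarcinoma arrays above the 3 dysplasia arrays. The margin was narrow, with adenocarcinoma 2 at 11.46 and dysplasia 2 at 11.43. Its log2 fold change was 0.65 without adenocarcinoma 3 and 1.68 without adenocarcinoma 2. Acta2 had 1.26 ± 0.85 and Myh11 had 0.95 ± 1.02 (both adjusted p = 0.89).

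Csrp1 differed least between the lesions, by 0.15 ± 1.34 on the log2 scale (adjusted p = 0.99). Its interval of -2.94 to 3.24 comes from a fit that pools the spread over all groups, normal 3 included. Without normal 3 the interval was -0.29 to 0.59 (adjusted p = 0.80), but its width reflects the evenness over the lesion arrays for which Csrp1 stood out. The interval spans both directions and does not show that Csrp1 was equal in the lesions. For Mylk, with 0.48 ± 1.35 (adjusted p = 0.96), single arrays set the value: without dysplasia 3 the log2 fold change was 1.81, and without dysplasia 1 it was -0.64. Actg2 had 0.64 ± 0.78 (adjusted p = 0.90), and -0.24 without adenocarcinoma 3. The remaining 2 had 0.57 ± 0.41 (Tagln) and 0.37 ± 0.27 (Lmod1) on the log2 scale, both with adjusted p = 0.89. For Lmod1 the dysplasia side was below background, so the size is uncertain. With dysplasia raised to the background level, the Lmod1 difference was 0.17.

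**Figure D4:**
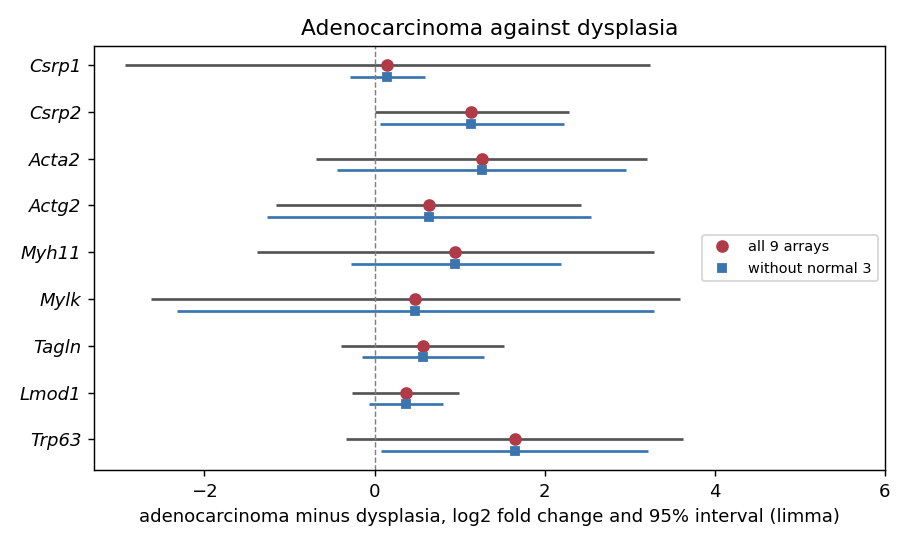
Log2 fold change of adenocarcinoma over dysplasia for the 9 genes (x axis) with its 95% interval from limma, unadjusted for the number of genes. Red points are the fit on all 9 arrays and blue squares the fit without normal 3. All 9 points lie to the right of 0, and the Csrp1 interval narrows to -0.29 to 0.59 without normal 3. For Lmod1 the dysplasia side was below background.

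The adenocarcinoma arrays differed from each other in which genes accompanied Acta2 and Trp63. On adenocarcinoma 1 the basal keratin gene Krt14 was at 12.07 and Krt5 at 7.0, near their 11.79 and 12.30, and 7.27 and 8.19, on normal 1 and 2 (log2 intensity). On adenocarcinoma 3, where Acta2 (14.45), Csrp2 (13.52) and Trp63 (8.94) were as high or higher than on adenocarcinoma 1, Krt14 was at 7.59 and Krt5 at 5.92, below background. The hemidesmosome collagen gene Col17a1 was also lower on the latter, with 9.12 on adenocarcinoma 1, 6.65 on adenocarcinoma 2 and 6.48 on adenocarcinoma 3. Myh11 was at 8.72 on adenocarcinoma 1 and at 7.05 on adenocarcinoma 3. The split did not hold for the whole basal list: of its 14 tested genes, 11 were lower on adenocarcinoma 3 than on adenocarcinoma 1, and Mme, Snai2 and Pdpn were higher (11.05 against 7.96, 8.84 against 7.87 and 12.72 against 11.64). Those 3 were also above normal 1 and 2 on adenocarcinoma 3. Every tested duct keratin gene was lower on adenocarcinoma 3 as well, such as Krt7 (8.89 against 11.96) and Krt8 (12.37 against 13.80). Lower values there were thus not particular to basal genes, and no share over all genes is given beside these counts. These are single arrays and the contrast between them has no test.

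Markers of other cells that use actin and myosin also differed between these arrays, not all in the same way. The 12 tested skeletal muscle genes had a median log2 intensity of 10.28 on adenocarcinoma 3, 7.35 on adenocarcinoma 1 and 6.26 on adenocarcinoma 2, against 8.21, 7.99 and 7.05 on the normal arrays and 6.26 to 6.65 in dysplasia. The log2 of their summed intensity ranged over 11.27 to 13.76 in normal glands, 10.46 to 11.14 in dysplasia and 10.15 to 15.61 in adenocarcinoma. For 8 fibroblast genes the medians were 10.66, 10.47 and 8.69 on normal, 7.66, 8.87 and 10.35 on dysplasia and 9.91, 8.77 and 11.46 on adenocarcinoma, with summed levels of 12.79 to 15.04, 10.67 to 13.65 and 12.27 to 14.85. The 9 tested pericyte and vascular smooth muscle genes stayed within medians of 6.90 to 8.04 on the 9 arrays. Their median was lowest on adenocarcinoma 1 and highest on adenocarcinoma 3. Their summed levels were at most 11.13 in normal glands, 10.76 to 11.45 in dysplasia and 10.87 to 11.81 in adenocarcinoma. Of these 3 lists, Pln and Postn had probes but none above background on 3 arrays. The part of these cells in the contractile gene values was not tested.

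**Figure D5:**
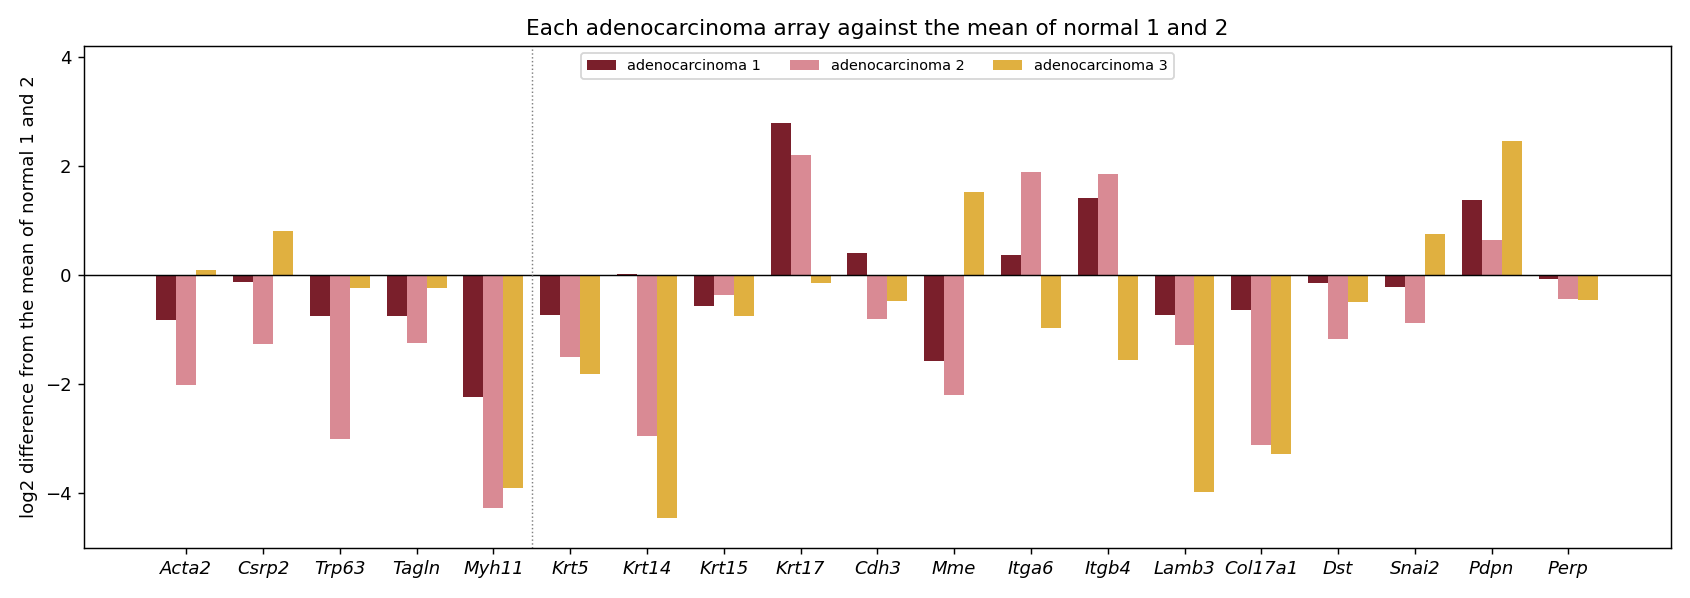
Log2 difference of each adenocarcinoma array from the mean of normal 1 and 2 (y axis), for 5 of the 10 genes (left of the dotted line) and the 14 tested basal genes (x axis). Bars are single arrays, and bars that end below background, such as Krt5 on adenocarcinoma 2 and 3, may understate the difference. Adenocarcinoma 3 is near 0 for Acta2 and Trp63, far below it for Krt14 and Col17a1, and above it for Mme, Snai2 and Pdpn.

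Other contractile genes of smooth muscle and myoepithelium were taken from a list of 20, of which 15 were tested. On all 9 arrays none of the 15 passed in any of the 3 comparisons by limma. Without normal 3, 2 fell in dysplasia and none rose, where 11.3% of tested genes fell and 12.4% rose. The 2 were the regulatory light chain gene Myl9, at 10.76, 10.97 and 7.78 on normal and 6.76, 7.88 and 8.29 on dysplasia (log2 fold change -3.22 ± 0.64, SE, adjusted p = 0.014), and the beta-tropomyosin gene Tpm2, with -2.94 ± 0.63 (adjusted p = 0.018). Their values on all 9 arrays were -2.19 and -2.05. Tpm2 was at 11.24, 9.48 and 10.86 on adenocarcinoma, above every dysplasia array (7.46 to 9.22). The list median was -0.07 in dysplasia and 0.21 in adenocarcinoma on all 9 arrays, beside 0.04 and 0.01 for all genes. Caldesmon, Cald1, differed the other way, at 7.74, 7.45 and 6.63 on normal and 8.83, 9.39 and 9.22 on dysplasia (adjusted p = 0.16 on all 9 arrays and 0.086 without normal 3).

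Basal genes outside the contractile apparatus were taken from a list of 18, of which 14 were tested. None passed on all 9 arrays, and without normal 3, 2 fell in dysplasia and none rose, where 11.3% of tested genes fell and 12.4% rose. For Col17a1 the log2 fold change was -3.42 ± 0.76 (adjusted p = 0.019), beside -2.48 on all 9 arrays. Krt5 was below background on all 3 dysplasia arrays, and normal 1 and 2 were at least 2.62-fold higher (adjusted p = 0.021). The list median in dysplasia was -0.66 on all 9 arrays. Among the same genes the laminin receptor subunit Itgb4 was at 11.13, 11.47 and 12.51 on normal and 13.20, 12.40 and 13.10 on dysplasia.

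Non-muscle actin and myosin genes, which every cell uses for its cortex and for cytokinesis, gave 18 tested genes of 21. None passed on all 9 arrays. Without normal 3, 4 rose and 1 fell in dysplasia, where 12.4% of tested genes rose and 11.3% fell. In adenocarcinoma 5 rose and none fell, where 7.59% of tested genes rose and 7.85% fell. The largest rise was in cofilin, Cfl1, at 7.12, 7.24 and 8.95 on normal, 9.05, 9.06 and 8.46 on dysplasia and 8.76, 8.71 and 9.19 on adenocarcinoma, with log2 fold changes of 1.67 (adjusted p = 0.0051) and 1.70 (adjusted p = 0.0069) without normal 3, and of 1.08 and 1.11 on all 9 arrays. Alpha-actinin 1, Actn1, a binding partner of CRP proteins, rose by 1.35 and 1.26 without normal 3 (adjusted p = 0.016 and 0.026), beside 0.85 and 0.77 on all 9 arrays. Like Csrp1, both were higher on normal 3 than on normal 1 and 2.

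Of 20 LIM domain genes of the cytoskeleton, 16 were tested and none passed on all 9 arrays. Without normal 3, Crip2 and Pdlim1 rose in dysplasia by 0.93 and 0.76 on the log2 scale (adjusted p = 0.017 and 0.029), and Pdlim4 fell by 2.97 (adjusted p = 0.028). These are 2 and 1 of 16, where 12.4% of tested genes rose and 11.3% fell. On all 9 arrays the 3 values were 0.72, 0.45 and -2.13. Crip2, for cysteine-rich protein 2, was higher on every lesion array (13.91 to 14.49) than on any normal array (13.22, 13.30 and 13.90), and it was the 1 gene of this list that rose in adenocarcinoma (0.84 without normal 3, adjusted p = 0.032, and 0.63 on all 9 arrays), where 7.59% of tested genes rose. Csrp3, the muscle LIM protein and the third CRP gene, was above background on normal 1 and 3 and on adenocarcinoma 3 (6.39, 6.47 and 7.89). Serum response factor and its cofactors gave 7 tested genes of 8 and none passed in any comparison, with or without normal 3. Srf itself was at 9.78 to 10.02 on normal, 9.87 to 10.19 on dysplasia and 10.08 to 10.45 on adenocarcinoma, and the cofactor gene Myocd never exceeded 6.64.

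The marker lists of other cells gave few calls, none on all 9 arrays. In the fit without normal 3, 12.4% of tested genes rose and 11.3% fell in dysplasia, and 7.59% rose and 7.85% fell in adenocarcinoma, so single calls in a list are near those shares. Without normal 3, Notch3 rose and the pericyte gene Rgs5 fell in dysplasia (log2 fold changes 1.07 and -1.65, adjusted p = 0.0082 and 0.041), and Notch3 rose in adenocarcinoma (0.73, adjusted p = 0.039). On all 9 arrays these were 0.59, -0.92 and 0.25. Of 11 endothelial genes the angiopoietin receptor gene Tek fell in dysplasia (-1.31, adjusted p = 0.041), and of 8 fibroblast genes the matrix genes Lum and Dpt fell (-3.60 and -3.12, adjusted p = 0.029 and 0.032). On all 9 arrays Tek was at -1.07, Lum at -2.45 and Dpt at -2.22. Among these lists the secretory genes fell furthest, with 4 of 9 in dysplasia, among them the salivary amylase gene Amy1 (-7.57, adjusted p = 0.0050), and 1 of 9 in adenocarcinoma, Bhlha15, for the acinar factor Mist1 (-2.40, adjusted p = 0.039), with -7.06 and -2.01 on all 9 arrays. None of 12 skeletal muscle genes and none of 4 duct keratins passed in any of the 3 comparisons.

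The genes with the most similar course to Csrp1 over the 9 arrays, by the mean absolute difference between profiles centred on their own mean, were Anln (0.35 on the log2 scale), Cdkn2a (0.37), Cdc20 (0.39), Otx1 (0.41) and Gpnmb (0.44). The search covered 4391 genes that varied with an SD of at least 0.5, with clone names left out. The nearest to Acta2 were Rnase4 (0.19), Klhl6 (0.23), Mmp2 (0.25), Prr33 (0.25) and Rcan1 (0.26). For Trp63 they were Rerg, Glrx and Msrb2 (0.25 each), Setbp1 (0.26) and Cyp2d22 (0.26). No other of the 10 genes was among the 5 nearest to any of the 3.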

How the data were processed

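Total RNA labelled with biotin was hybridised to 9 Illumina arrays, per the labels, and groups and replicate numbers come from the sample titles. The deposited intensities are linear, and their sorted columns differed by at most 0.099%, as after quantile normalization. Per the submitters' processing notes the authors used limma (version, background correction and scanner software not given in the sources used here). Another table, with 9 signal and 9 detection p-value columns whose names match no sample label, was not used here, so no detection calls or batches could be assigned.

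Of 45281 probes, 34885 had 1 gene symbol, 18 several and 10378 were unnamed here. The Entrez identifiers of 34807 matched RefSeq. Intensities were analysed as log2. Background (81.0, or 6.34 on the log2 scale) was the mode of all log2 values (an intensity of 65.3) plus the 95th percentile of the distances of lower values from it. Probes above it on at least 3 arrays were kept, and the probe with the highest mean represented each of 12723 genes. For fold bounds, lower values were raised to this level.

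Groups were compared in limma 3.58.1 (R 4.3.3), fitting a mean per group to the 9 arrays, with Benjamini-Hochberg adjustment over the 12723 genes and a threshold of 0.05. Standard errors are limma's moderated ones. The script was tested on simulated data. The genes and lists were chosen with earlier results of these data known. Named list genes are up to 4 past the threshold without overlap, else the 2 with the largest moderated t or a few chosen after their values were seen. The log ratio of normal 1 to normal 2 correlated between probes of a gene at 0.38 over 5303 genes, the lowest of the pairs within a group (0.74 to 0.81 for the others). They were counted as 2 samples, as labelled, but separate labelling of the same RNA could give such a value, so values without normal 3 may rest on fewer than 2 independent normal samples. Deviations of same-numbered arrays from their group means correlated at -0.46 to 0.24 over 9 pairs. Differently numbered arrays of different groups spanned -0.49 to 0.51. No pairing by number was assumed in the main fit. Pairing is not excluded, because each mean rests on 3 arrays and normal 3 dominated the deviations of its group. Alternatives covered log2 of intensity plus 16, normexp, cyclic loess, 2 other filters, averaging a gene's probes, a fit of each pair of groups alone, a replicate block, array weights and leaving out each array. Figures were drawn with matplotlib 3.10.9.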

Additional observations from a re-analysis of the deposited data

How the results depend on the processing

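No setting brought any of the 9 measurable genes past the threshold in adenocarcinoma against dysplasia: 0 of 161 fits under 18 settings, 158 of them with the same sign (the exceptions were Actg2 without adenocarcinoma 3 and with array weights, and Mylk without dysplasia 1; lowest adjusted p = 0.093, Trp63). Over single arrays left out, Csrp1 differed from normal by 2.48 to 5.47 in dysplasia and by 2.63 to 5.61 in adenocarcinoma, the highest values without normal 3. The counts of genes called were 0 in all 3 comparisons, and those against normal glands depended on normal 3. Leaving out 1 array at a time gave 0 to 3017 genes in dysplasia against normal, 0 to 1965 in adenocarcinoma against normal and 0 to 1 in adenocarcinoma against dysplasia. Array weights gave 7799, 4487 and 4 genes, no filter gave 1 and 6 genes in the comparisons with normal, and cyclic loess gave 1 gene in adenocarcinoma against normal. The cause was not tested. A replicate block kept all 3 counts at 0 (lowest adjusted p = 0.16, 0.14 and 0.92) and changed no call. Lmod1 could not be fitted under the stricter filter (mean log2 of at least 7). A slide block was not run, as no label gives a slide. Signal over background limits Cnn1, Lmod1, Tagln and, on lesion arrays, Myh11 and Trp63.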

Other observations

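Without normal 3, 3 of 12723 genes had a gap of at least 4 on the log2 scale between the higher of normal 1 and 2 and the lowest lesion array: Csrp1 (5.11), Anln (4.11), which encodes the cytokinesis protein anillin, and Cdkn2a (4.01), which encodes p16 and ARF. On normal 3 they were at 12.96, 12.33 and 10.56, within or next to their lesion ranges of 12.74 to 13.03, 11.87 to 12.28 and 10.08 to 11.25. Agt and Scgb1b27 had a gap of that size in the other direction. This gap was chosen after the values were seen.

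Among the duct keratins, adenocarcinoma 3 also stood low: Krt19 was at 6.10, below background, against 8.69 and 9.08 on adenocarcinoma 1 and 2, and Krt18 at 11.03 against 13.27 and 13.32. Fhl1, a LIM protein gene abundant in skeletal muscle, was at 13.60 on adenocarcinoma 3 and at 6.86 to 10.31 on the other 8 arrays. The SRF partner Fhl2 was at 9.54 on dysplasia 3 and at 6.39 and 7.05 on dysplasia 1 and 2. Krt17 was at 14.12 on dysplasia 3 and at 7.77 and 8.63 on the other two. These genes were picked after their values were seen and have no test.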
